A study of Mus musculus with 15 samples.

Results

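The Zscan4 gene cluster of mouse chromosome 7 was followed through 15 RNA-seq libraries of embryonic stem (ES) cells. Its members here are Zscan4a, Zscan4c, Zscan4d and Zscan4f, which are 4 of the 6 Zscan4 genes among the 23284 genes in the deposited count table. They were named with earlier results of these data known, and Zscan4b and Zscan4e are described beside them. Because the 4 members are near-identical copies, each was described on its own and all 4 were also summed before any test. The cells were of the E14 line (E14Tg2A), grown in serum with LIF and used unsorted. All cells received 5 nmol of an antisense oligonucleotide (ASO) by nucleofection, 100 pmol of an siRNA by lipofection after 7 h, and were collected on day 2. The groups had 3 libraries each. LINE1 siDux received the ASO against the LINE1 retrotransposon and an siRNA against Dux. LINE1 control received the LINE1 ASO and siControl. RC siNcl, RC siDux and RC control received the ASO labelled RC, the control for LINE1, with an siRNA against Ncl, an siRNA against Dux or siControl. Every group therefore carried both a nucleofected ASO and a transfected siRNA, and none was left untreated. The labels number the libraries without saying if each was its own culture, and p-values measure only the spread among these libraries, which may be technical.

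Zscan4 genes encode zinc finger proteins with a SCAN domain. They are known for a burst of transcription in the 2-cell mouse embryo and, in ES cell cultures, for expression in a small and changing fraction of cells that is called 2-cell-like, where ZSCAN4 is known for a role in telomere lengthening. The homeobox factor DUX is known to bind and activate Zscan4 genes and the retrovirus MERVL in such cells. Nucleolin, encoded by Ncl, is an abundant RNA-binding protein of the nucleolus. The comparisons therefore asked how Zscan4 RNA differed with the LINE1 ASO, with siNcl and with siDux, and whether the siDux difference was alike under either ASO.

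In RefSeq on GRCm38.p6, the cluster holds 9 genes and pseudogenes over 820 kb of chromosome 7. Zscan4c, Zscan4d and Zscan4f are annotated there as protein coding, as is Zscan4b, while Zscan4a is a transcribed pseudogene and Zscan4e a pseudogene. The counts were made on another build, mm9, so these positions describe the annotation and not the counting. The 250 bases before the annotated start of 3 members are shown because they make plain how alike the copies are and because siDux targets a factor that binds upstream of Zscan4 genes. They lie at chr7:11005495-11005744 on the plus strand for Zscan4c, chr7:11166149-11166398 on the minus strand for Zscan4d and chr7:11397665-11397914 on the plus strand for Zscan4f. They are written 5′ to 3′ on the gene's own strand, and capitals mark TATAAA and TGATTNAA.
Zscan4c: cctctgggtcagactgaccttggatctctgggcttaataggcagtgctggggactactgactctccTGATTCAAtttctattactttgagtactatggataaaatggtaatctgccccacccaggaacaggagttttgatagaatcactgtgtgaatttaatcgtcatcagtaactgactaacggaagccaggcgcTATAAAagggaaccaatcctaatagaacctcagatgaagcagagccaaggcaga
Zscan4d: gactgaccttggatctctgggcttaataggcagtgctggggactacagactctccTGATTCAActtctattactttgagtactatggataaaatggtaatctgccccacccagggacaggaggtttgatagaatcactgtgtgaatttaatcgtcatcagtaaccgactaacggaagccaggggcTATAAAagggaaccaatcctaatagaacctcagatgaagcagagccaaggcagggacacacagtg
Zscan4f: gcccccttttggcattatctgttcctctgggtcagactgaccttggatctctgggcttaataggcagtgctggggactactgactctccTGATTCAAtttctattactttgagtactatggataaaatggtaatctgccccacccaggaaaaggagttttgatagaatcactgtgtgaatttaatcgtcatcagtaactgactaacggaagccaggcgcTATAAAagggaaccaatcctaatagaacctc

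Laid over each other without gaps, the Zscan4c and Zscan4f promoters were 99.6% identical, with 1 mismatch in 227 aligned positions. Zscan4c and Zscan4d were 97.1% identical over 239 positions, and Zscan4d and Zscan4f 96.8% over 216. Each of the 3 held TATAAA once, beginning 54 bases before the start in Zscan4c, 65 in Zscan4d and 31 in Zscan4f. Among all 32851 RefSeq promoters of the same 250 bases, 12.4% held TATAAA on either strand. The palindromic motif known for DUX, which is TGATT, 1 base of any kind and AATCA, was not among the letters of these windows and occurred in 0.0304% of all promoters. Its shorter form TGATTNAA, searched on both strands after the sequences had been seen and contained within the longer motif, occurred once in each, 184, 195 and 161 bases before the start of Zscan4c, Zscan4d and Zscan4f. It occurred in 2.6% of all promoters.

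The transcripts also share sequence, which bears on every value of a single copy. Of the distinct stretches of 50 bases in GENCODE transcripts, 86.8% of those of Zscan4f and 85.5% of those of Zscan4c also occurred in another of 9 Zscan4 genes, against 63.6% of those of Zscan4a and 49.6% of those of Zscan4d. Zscan4f shared 74.3% of its stretches with Zscan4c, while Zscan4d shared at most 36.7% with any other member. For Zscan4b and Zscan4e, which are outside the sum, 90.1% and 89% of the stretches occurred in another Zscan4 gene. Their values may therefore not be separate from those of the members. The sources used here do not give how a read matching several copies was counted, so values of single copies are uncertain and the sum carries the comparisons. CPM is a gene's counts per 1000000 gene counts, scaled between libraries by TMM. It is not divided by transcript length, so levels of different copies are not ranked.

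Gene counts per library came to between 9.55 M and 27.6 M, with at least 22.7 M in LINE1 siDux, 17.4 M to 21 M in LINE1 control and 9.55 M to 17.4 M in the 3 RC groups. One read was worth between 0.0338 and 0.106 CPM. RC control replicate 2 had the lowest TMM factor (0.874, against 0.965 to 1.07 in the others) and lay farthest out on the first principal component. All 8 ES cell markers were tested, and their summed level was between 3883 and 5824 CPM in every group but RC control, where it reached 8771 CPM. The 8 fibroblast markers, of which 5 were tested, summed to between 36.9 and 60.5 CPM in every group but RC control, where they summed to between 35.8 and 66 CPM. Col1a1 had 17.1 to 39.2 CPM over all libraries, and Dcn, Lum and Postn had at most 0.436 CPM. The 6 endoderm markers summed to between 150 and 174 CPM in RC siNcl and to between 102 and 152 CPM in RC control, and their part in the results was not tested.

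The targeted genes were examined first. Ncl stood at 644, 619 and 516 CPM in the RC siNcl libraries and at no less than 3220 CPM in any other library. It was lower in RC siNcl than in RC control by a log2 change of -3.11 ± 0.14 (SE, edgeR's quasi-likelihood test, adjusted p = 8.81e-10). Dux gave few reads. The LINE1 siDux libraries had 19, 11 and 12 Dux counts and the LINE1 control libraries 25, 18 and 24, and the difference in scaled level missed the threshold (log2 change -1.08 ± 0.41, adjusted p = 0.298). RC siDux had 2, 0 and 5 Dux counts and RC control 4, 1 and 3, too few to show a lowering of Dux by siDux (-0.29 ± 0.83, adjusted p = 0.862). Counts of Dux, itself a repeated gene, therefore check the siDux label poorly under the RC ASO.

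Zscan4 RNA spanned a wide range across the 5 groups. The 4 copies together had 554, 394 and 452 counts in LINE1 siDux, 1395, 1297 and 1088 in LINE1 control and 329, 414 and 907 in RC siNcl. They had 9, 10 and 21 counts in RC siDux, and 85, 70 and 115 in RC control. Scaled for depth, the sum averaged 18.1 ± 1.5 CPM in LINE1 siDux, 64.4 ± 6.4 CPM in LINE1 control, 43.9 ± 14.5 CPM in RC siNcl, 0.989 ± 0.316 CPM in RC siDux and 7.42 ± 1.13 CPM in RC control (SD, n = 3 each). From the highest, the order was LINE1 control, RC siNcl, LINE1 siDux, RC control and RC siDux. Libraries of neighbouring groups did not overlap except at the top, where the highest RC siNcl library (60.6 CPM) lay above the lowest LINE1 control library (59.1 CPM). In these unsorted cultures, fewer cells with Zscan4 RNA and less Zscan4 RNA per cell cannot be told apart.

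**Figure D1:**
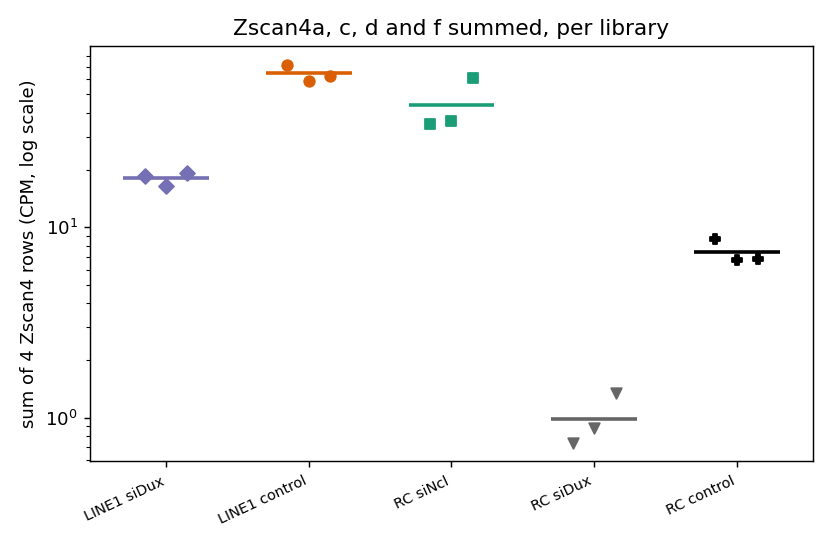
Summed CPM of Zscan4a, Zscan4c, Zscan4d and Zscan4f per library on a log axis, with 1 point per library in order of replicate number and a line at each group's mean. The 3 RC siDux libraries sit at or below 1.34 CPM, and those of LINE1 control at 59.1 CPM or more.

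Each copy followed the same order of groups. Zscan4a, the annotated pseudogene, had 2.2, 2.84 and 3.54 CPM in LINE1 siDux, 10.9, 10.2 and 12.3 in LINE1 control, 8.2, 7.41 and 14.1 in RC siNcl, 0.247, 0.353 and 0.384 in RC siDux, and 2.46, 1.05 and 2.08 in RC control. Its highest library was thus one of RC siNcl, and LINE1 siDux overlapped RC control. Zscan4c, the copy best known from reporter studies of 2-cell-like ES cells, had 5.47, 5.47 and 6.49 CPM in LINE1 siDux, 20.5, 18.4 and 17.3 in LINE1 control, 11, 11.1 and 16.8 in RC siNcl, 0, 0.176 and 0.512 in RC siDux, and 2.56, 2.78 and 1.72 in RC control. No 2 groups overlapped for Zscan4c. Zscan4d, the copy known to predominate in the 2-cell embryo, had 6.35, 4.47 and 5.76 CPM in LINE1 siDux, 21.8, 16.9 and 18.9 in LINE1 control, 8.2, 9.42 and 15.5 in RC siNcl, 0.0822, 0 and 0.384 in RC siDux, and 1.95, 1.44 and 1.96 in RC control. No 2 groups overlapped for Zscan4d either. Zscan4f had 4.7, 3.67 and 3.5 CPM in LINE1 siDux, 18.3, 13.6 and 14 in LINE1 control, 7.66, 8.2 and 14.2 in RC siNcl, 0.411, 0.353 and 0.064 in RC siDux, and 1.74, 1.44 and 1.07 in RC control. For Zscan4f, RC siNcl replicate 3 reached into the range of LINE1 control, and the other groups stood apart from one another.

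**Figure D2:**
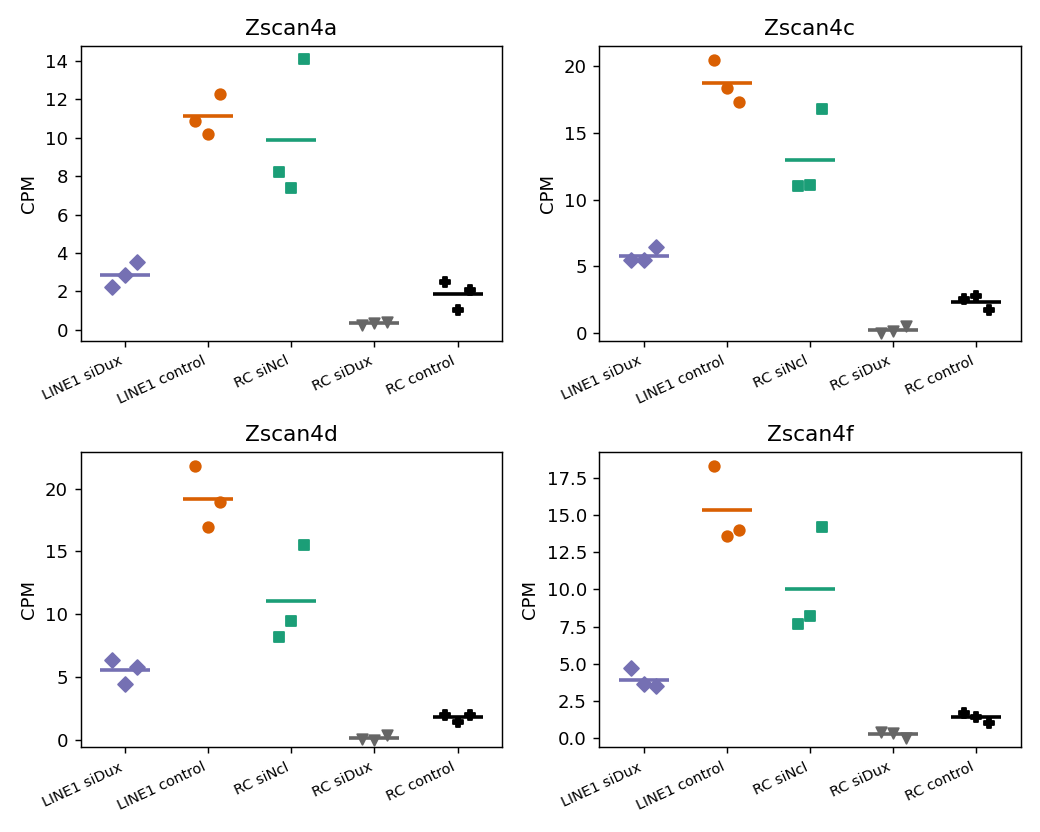
CPM of each Zscan4 copy per library on linear axes, with 1 point per library and a line at each group's mean. In all 4 panels the RC siDux libraries lie lowest and RC siNcl replicate 3 lies above the other RC siNcl libraries.

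The remaining Zscan4 genes of the table, Zscan4b and Zscan4e, had fewer reads and the same order. Zscan4b averaged 0.352 ± 0.0279 CPM in LINE1 siDux, 1.51 ± 0.162 in LINE1 control, 1.11 ± 0.767 in RC siNcl and 0.197 ± 0.0974 in RC control, and had 0 counts in all 3 RC siDux libraries. Zscan4e averaged 1.03 ± 0.0719 CPM in LINE1 siDux, 3.62 ± 0.816 in LINE1 control, 2.72 ± 1.29 in RC siNcl, 0.0487 ± 0.0432 in RC siDux and 0.319 ± 0.114 in RC control. Against a floor set at 3 counts over the RC siDux group (0.0767 CPM), the Zscan4b mean of LINE1 siDux, from 27 counts, was 4.59-fold higher. This difference missed the threshold (edgeR) with ERCC scaling (adjusted p = 0.069) and with libraries thinned to the smallest gene total (0.122). It also missed it without any 1 RC siDux library (0.0776 to 0.108) and without LINE1 siDux replicate 1 (0.0854) or 2 (0.0639).

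With the LINE1 ASO under siControl, Zscan4 RNA was 8.73-fold higher in LINE1 control than in RC control. The log2 change of the sum was 3.13 ± 0.20 (SE, 95% interval 2.68 to 3.58, quasi-likelihood test of edgeR, adjusted p by Benjamini-Hochberg = 4.93e-07), the smallest p of all rows tested in this comparison. The sum pools 4 genes and was ranked against single genes, here and below, which favours a small p. All 4 members rose, where 9.35% of 14696 genes tested rose and 9.69% fell. The changes were 2.56 ± 0.29 for Zscan4a (adjusted p = 6.31e-05), 3.03 ± 0.28 for Zscan4c (6.78e-06), 3.41 ± 0.30 for Zscan4d (5.53e-06) and 3.47 ± 0.30 for Zscan4f (5.53e-06). Zscan4b and Zscan4e rose too, by 2.78 ± 0.52 (adjusted p = 0.00427) and 3.45 ± 0.41 (8e-05). Without RC control replicate 2, the change of the sum was 3.08 ± 0.23 (adjusted p = 8.46e-06).

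With siNcl under the RC ASO, Zscan4 RNA was 5.99-fold higher in RC siNcl than in RC control, a log2 change of 2.58 ± 0.20 in the sum (95% interval 2.13 to 3.03, adjusted p = 1.27e-07). All 4 members rose, where 16.7% of genes rose and 15.6% fell. Their changes lay between 2.41 ± 0.30 for Zscan4a (adjusted p = 1.58e-05) and 2.88 ± 0.31 for Zscan4f (4.03e-06), with Zscan4c at 2.51 ± 0.28 and Zscan4d at 2.63 ± 0.31. The RC siNcl libraries were not alike. Replicate 3, with the lowest Ncl of the group, had 60.6 CPM of the Zscan4 sum, against 35 and 36.1 CPM in replicates 1 and 2, and it was the highest of the group for each Zscan4 gene. It also had 2 CPM of Dux (30 counts), against 1.38 and 0.785 CPM (13 and 9 counts). Without it, the change of the sum was 2.27 ± 0.15 (adjusted p = 1.22e-07), and without RC control replicate 2 it was 2.53 ± 0.23 (1.05e-06). This comparison, the LINE1 one and that of RC siDux share the 3 RC control libraries.

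Set directly against each other, LINE1 control had 1.46-fold more Zscan4 RNA than RC siNcl (log2 change of the sum 0.55 ± 0.18, 95% interval 0.15 to 0.93, adjusted p = 0.0371). Of the members, Zscan4d was called (0.78 ± 0.25, adjusted p = 0.0336), where 9.45% of genes were higher and 10.4% lower. Zscan4a differed by 0.15 ± 0.24 (adjusted p = 0.713), Zscan4c by 0.52 ± 0.23 (0.125) and Zscan4f by 0.60 ± 0.24 (0.0914). Both calls rested on few libraries. The call of the sum was lost without LINE1 control replicate 1 (0.47, adjusted p = 0.138) or replicate 2 (0.61, 0.0582) and without RC siNcl replicate 1 (0.42, 0.16) or replicate 2 (0.43, 0.149). Without RC siNcl replicate 3 it was 0.86 (0.00111). The call of Zscan4d was lost without the same 4 libraries (adjusted p from 0.0552 to 0.143).

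With siDux under the LINE1 ASO, Zscan4 RNA fell to 28.2% of its LINE1 control mean in LINE1 siDux. The log2 change of the sum was -1.83 ± 0.18 (95% interval -2.23 to -1.43, adjusted p = 0.000249), again the smallest p of all rows tested. All 4 members fell, where only 0.306% of genes fell and 0.544% rose. Their changes were close to one another, at -1.96 ± 0.26 for Zscan4a (adjusted p = 0.00278), -1.69 ± 0.23 for Zscan4c (0.00352), -1.79 ± 0.25 for Zscan4d (0.00352) and -1.95 ± 0.25 for Zscan4f (0.00278). ERCC scaling ended the call of Zscan4c (-1.85, adjusted p = 0.0601). Zscan4b (-2.08 ± 0.41, adjusted p = 0.0326) and Zscan4e (-1.80 ± 0.30, 0.0117) fell as well, but both calls were fragile. The call of Zscan4b was lost when any single library of either group was left out (adjusted p from 0.0849 to 0.149). Thinning (0.212) and ERCC scaling (0.132) ended it too. That of Zscan4e was lost with ERCC scaling (0.128), without LINE1 control replicate 1 or 3 and without LINE1 siDux replicate 2 or 3. With the replicate number as a block, 141 genes fell and 305 rose, against 45 and 80 without it. Libraries of the same number deviated together in this comparison, and the block ended no call of the sum.

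With siDux under the RC ASO, Zscan4 RNA fell to 13.3% of its RC control mean in RC siDux, with a log2 change of -2.85 ± 0.30 in the sum (95% interval -3.51 to -2.19, adjusted p = 5.5e-05). All 4 members fell, where 4.5% of genes fell and 6.09% rose. The changes were -2.47 ± 0.46 for Zscan4a (adjusted p = 0.00343), -3.14 ± 0.49 for Zscan4c (0.000865), -3.29 ± 0.57 for Zscan4d (0.00207) and -2.38 ± 0.53 for Zscan4f (0.00961). Between 0 and 8 counts per library stood behind each copy in RC siDux, so these single changes are imprecise. The call of Zscan4f was lost without RC siDux replicate 3 (-1.82, adjusted p = 0.0699), with ERCC scaling (-2.07, 0.0783) and with only the compared groups in the fit (-2.36, 0.0601). Zscan4b and Zscan4e missed the threshold (adjusted p = 0.0532 and 0.0755). Without RC control replicate 2 the change of the sum was -2.90 ± 0.34 (adjusted p = 0.00023), and with the replicate number as a block 1126 genes fell, against 661 without it.

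The effect of the LINE1 ASO was also present when siDux was given. LINE1 siDux had 17.7-fold more Zscan4 RNA than RC siDux (log2 change of the sum 4.15 ± 0.27, 95% interval 3.55 to 4.75, adjusted p = 4.66e-07), the smallest p of all rows tested. All 4 members rose, where 2.31% of genes rose and 0.749% fell. The changes were 3.07 ± 0.42 for Zscan4a (adjusted p = 0.000763), 4.48 ± 0.41 for Zscan4c (2.57e-05), 4.91 ± 0.46 for Zscan4d (2.57e-05) and 3.91 ± 0.43 for Zscan4f (9.86e-05). Dux in this comparison was at 19, 11 and 12 counts in LINE1 siDux and at 2, 0 and 5 counts in RC siDux, and its change missed the threshold (1.58 ± 0.63, adjusted p = 0.171).

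LINE1 siDux also stayed above the baseline of RC control. Its sum was 2.46-fold higher (log2 change 1.30 ± 0.20, 95% interval 0.85 to 1.75, adjusted p = 0.000239). Of the members, 3 rose, where 16.7% of genes rose and 16.2% fell: Zscan4c by 1.34 ± 0.29 (adjusted p = 0.00258), Zscan4d by 1.62 ± 0.31 (0.00123) and Zscan4f by 1.53 ± 0.32 (0.00222). Zscan4a differed by 0.60 ± 0.31 (adjusted p = 0.148). Dux itself averaged 0.538 ± 0.094 CPM in LINE1 siDux (42 counts) and 0.228 ± 0.163 CPM in RC control (8 counts). Its part in the Zscan4 difference was not tested. Between RC siNcl and LINE1 siDux, the sum was 2.43-fold higher in RC siNcl (1.28 ± 0.18, adjusted p = 0.000282) and all 4 members rose, where 7.49% of genes rose and 7.31% fell. The Zscan4d call in that comparison was lost without LINE1 siDux replicate 2 (0.87, adjusted p = 0.0734) or RC siNcl replicate 3 (0.66, 0.117).

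**Figure D3:**
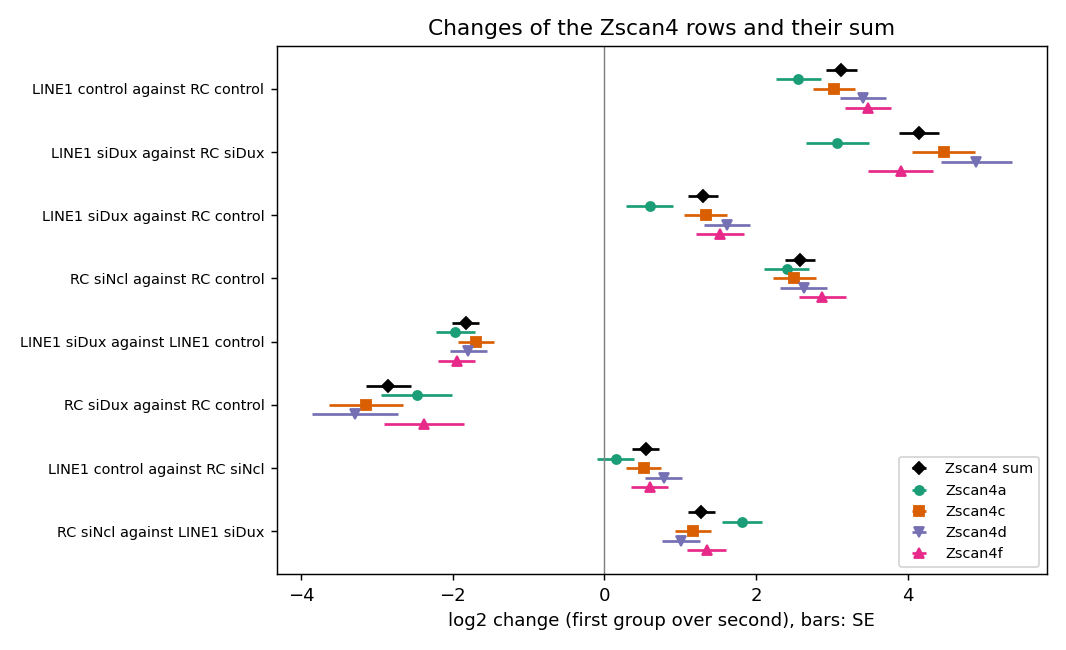
Log2 changes of the Zscan4 sum (black diamonds) and of each copy, with the SE as bars, in 8 comparisons named as first group against second. The sum stands right of 0 in 6 comparisons and left of 0 in both siDux comparisons, at -1.83 and -2.85.

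Whether siDux changed Zscan4 RNA by a different factor under either ASO was tested as an interaction. The fall was smaller on the log2 scale with the LINE1 ASO by 1.02 ± 0.36 in the sum (95% interval 0.22 to 1.82, unadjusted p = 0.0116), but this missed the threshold over all genes (edgeR's quasi-likelihood test, adjusted p = 0.982). No member was called, and 0% of genes were called in either direction. Zscan4c (1.45 ± 0.58, unadjusted p = 0.0224) and Zscan4d (1.495 ± 0.668, unadjusted p = 0.0395) were among the 491 of 14696 genes tested that had an unadjusted p under 0.05, while Zscan4a (0.51 ± 0.54) and Zscan4f (0.43 ± 0.59) were not. That threshold alone gives many genes, and nothing particular to the members is read from it. DESeq2 called 9 genes for this term. The 3 RC siDux libraries behind this term had 9, 10 and 21 counts of the sum.

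The make-up of the sum was compared as each copy's share of the summed counts. Zscan4a made up 15.8 ± 3.55% in LINE1 siDux, 17.4 ± 2.24% in LINE1 control, 22.4 ± 1.62% in RC siNcl, 34 ± 5.74% in RC siDux and 24.8 ± 7.94% in RC control. Zscan4d made up 30.3 ± 3.41%, 29.8 ± 1.02%, 25 ± 1.43%, 13.2 ± 14.4% and 24.2 ± 3.96% in the same groups (SD, n = 3 each). The share of Zscan4a was lower with the LINE1 ASO than with the RC ASO by 12.8 points on average over siDux and siControl, written as a difference of -12.8 points (two-sided exact permutation test within each siRNA, p = 0.015, adjusted over 4 shares 0.04, lower in both strata). The share of Zscan4d was higher by 11.4 points (exact permutation p = 0.02, adjusted 0.04, higher in both strata). The shares of Zscan4c (4.9 points) and Zscan4f (-3.45 points) did not pass (adjusted p = 0.665 for either, exact permutation). The smallest p that 400 permutations can give is 0.005.

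The shares in RC siDux rest on sums of 9 to 21 counts, and both calls were fragile. For Zscan4a the call was kept without RC siDux replicate 3 or RC control replicate 2 and lost without any other single library (adjusted p from 0.05 to 0.1, exact permutation, with differences from -13.4 to -11.3 points). For Zscan4d it was kept without RC siDux replicate 3 or RC control replicate 3 and lost without any other library (adjusted p from 0.05 to 0.21, exact permutation, 8.04 to 12.1 points). With every library thinned to the smallest gene total, the differences were -12.4 points for Zscan4a (adjusted p = 0.14) and 9.75 points for Zscan4d (0.18, exact permutation). Reads shared between copies could move between their rows, and their part in these shares was not tested.

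**Figure D4:**
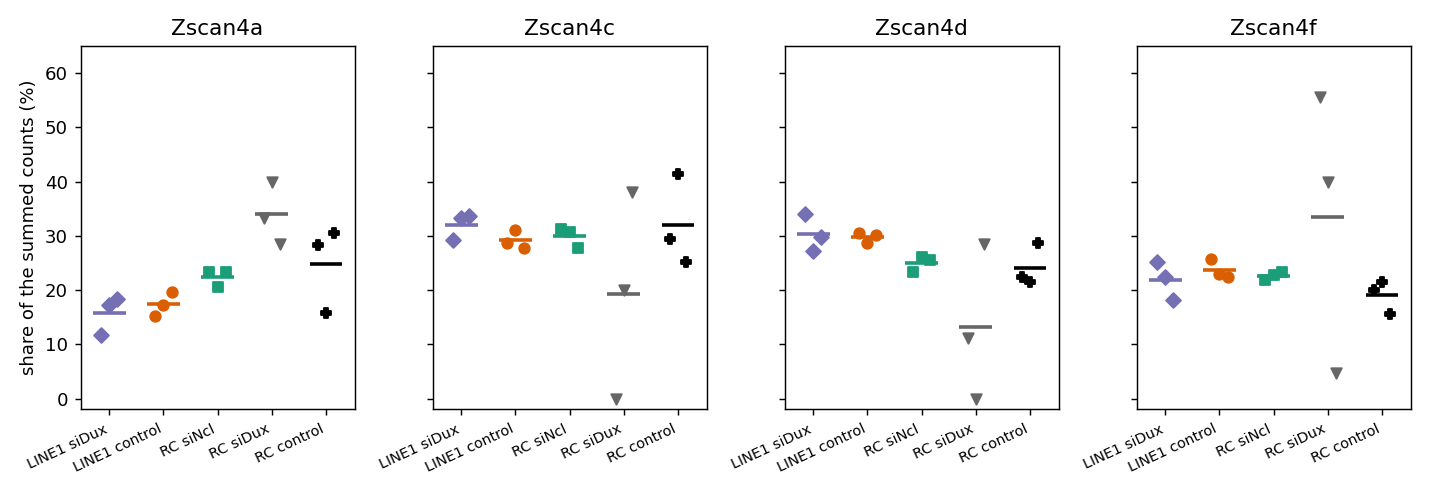
Share of each Zscan4 copy in the summed counts of the 4 copies, in percent, with 1 point per library and a line at each group's mean. The RC siDux libraries, with 9 to 21 counts in all, scatter widely, from 4.76% to 55.6% for Zscan4f.

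MERVL, the endogenous retrovirus transcribed with Zscan4 in 2-cell-like cells, was counted in a separate table of repeat subfamilies. Its internal part, MERVL-int, had 790, 686 and 958 CPM in LINE1 siDux, 2117, 1811 and 2048 in LINE1 control, 1611, 1635 and 3097 in RC siNcl, 464, 477 and 417 in RC siDux, and 651, 370 and 568 in RC control. The order of the groups was thus that of the Zscan4 sum, except that RC siNcl averaged above LINE1 control and that RC siDux overlapped RC control. MERVL-int rose in LINE1 control against RC control (1.91 ± 0.23, adjusted p = 4.05e-05, where 5% of 800 subfamilies rose) and in RC siNcl against RC control (2.00 ± 0.23, adjusted p = 2.2e-05, where 6.12% rose). Its LTR, MT2_Mm, rose in both as well, by 1.51 ± 0.18 (adjusted p = 4.05e-05) and 1.66 ± 0.18 (1.79e-05). Without RC control replicate 2, the MERVL-int changes were 1.71 ± 0.22 and 1.79 ± 0.22. ERCC scaling ended both MT2_Mm calls (1.71, adjusted p = 0.192, and 1.66, 0.276) and that of MERVL-int in RC siNcl (1.89, 0.0723), while that of MERVL-int in LINE1 control held.

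In the siDux comparisons, MERVL-int had smaller log2 changes than the Zscan4 sum. It fell in LINE1 siDux against LINE1 control (-1.30 ± 0.22, adjusted p = 0.00593, where 0.25% of subfamilies fell), a call lost without LINE1 siDux replicate 2 (-1.19, adjusted p = 0.0789). MT2_Mm fell there too (-1.16 ± 0.17, adjusted p = 0.002). ERCC scaling ended both of these calls (-1.45 and -1.31, adjusted p = 1). In RC siDux against RC control, MERVL-int (-0.23 ± 0.22, adjusted p = 0.632) and MT2_Mm (-0.39 ± 0.17, adjusted p = 0.308) missed the threshold, while the Zscan4 sum fell by 2.85. In LINE1 siDux against RC siDux, MERVL-int differed by 0.84 ± 0.22 (adjusted p = 0.0969) and the Zscan4 sum by 4.15. MERVL-int passed there with the replicate number as a block (0.81, adjusted p = 0.033), with no filter on low counts (0.84, 0.0175) and with only the compared groups in the fit (0.85, 0.00307). The interaction of ASO and siDux was -1.07 ± 0.31 for MERVL-int and -0.771 ± 0.245 for MT2_Mm (edgeR's quasi-likelihood test, unadjusted p = 0.00281 and 0.00551). Neither was called (adjusted p = 0.923 for either). Their sign was opposite to that of the Zscan4 sum (1.02), which was not called either. The difference between the changes of MERVL-int and of Zscan4 was not itself tested.

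**Figure D5:**
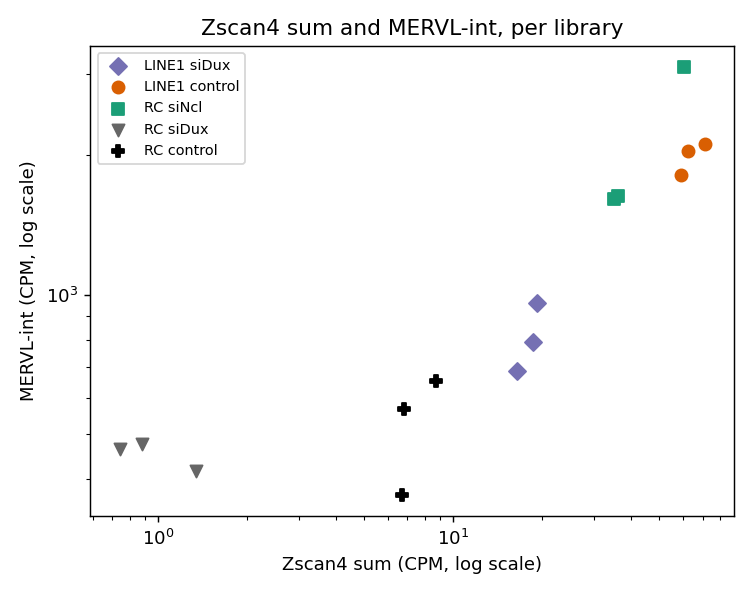
MERVL-int CPM against the summed Zscan4 CPM, both on log axes, with 1 point per library and a symbol per group. The RC siDux libraries reach down to 0.74 CPM of Zscan4 while their MERVL-int, from 417 to 477 CPM, lies within the range of RC control.

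The list of other 2-cell-like genes holds 51 names, of which 45 were in the table and 33 were tested. The filter kept genes with enough reads in any 1 group. Tested genes near 0 CPM in RC control could therefore hardly be called lower than RC control. Examples are BC080695 (0 CPM, against 1 in LINE1 control) and Tdpoz3 (0.0396, against 1.49). The counts of rises over RC control and RC siDux carry this limit. In LINE1 control against RC control 27 rose and 0 fell, with a median log2 change of 2.11, against 0.02 over all genes, of which 9.35% rose and 9.69% fell. In RC siNcl against RC control 28 rose and 1 fell (Usp26, -0.38 ± 0.12, adjusted p = 0.0186), with a median of 2.37, where 16.7% of all genes rose and 15.6% fell. In LINE1 siDux against RC siDux 17 rose and 0 fell (median 2.26, where 2.31% of genes rose), and in LINE1 siDux against RC control 14 rose and 0 fell (median 0.81, where 16.7% of genes rose). Those 14 were 9 without LINE1 siDux replicate 1 or 3 or RC control replicate 2 or 3. In LINE1 siDux against LINE1 control 0 rose and 15 fell (median -1.37, where 0.306% of genes fell), a count that was 3 to 9 when any 1 of the 6 libraries was left out. In RC siDux against RC control 2 rose and 11 fell (median -1.45, where 6.09% of genes rose and 4.5% fell). The 2 that rose there, Zfp750 (1.80 ± 0.22) and Ddit4l (1.39 ± 0.19), were named after their values were seen.

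The genes of that list with the smallest p in LINE1 control against RC control changed there by between 2.36 and 3.20 on the log2 scale, and the Zscan4 copies by between 2.56 and 3.47. Gm12794 rose by 3.20 ± 0.28 and Dub1, which encodes a deubiquitinating enzyme, by 2.85 ± 0.25. Gm13119 rose by 2.81 ± 0.35, and Tcstv3, of a family named for its transcripts at the 2-cell stage, by 2.76 ± 0.24. Gm8994 rose by 2.36 ± 0.29 and Gm8300 by 2.36 ± 0.28 (all 6 with an adjusted p of 0.000131 or less). Zfp352, another zinc finger gene of that embryonic stage, averaged 2.52 ± 0.546 CPM in LINE1 control and 1.4 ± 0.199 CPM in RC control, and its difference missed the threshold (0.85 ± 0.40, adjusted p = 0.146). Of these 6, 4 fell in RC siDux against RC control, where 4.5% of all genes fell. Gm12794 fell by 2.59 on the log2 scale, Tcstv3 by 2.52, Gm8994 by 1.87 and Gm8300 by 1.80. Dub1 (-0.60 ± 0.31, adjusted p = 0.226) and Gm13119 (-1.46 ± 0.59, adjusted p = 0.119) missed the threshold there. The call of Gm8300 was lost with ERCC scaling (-1.72, adjusted p = 0.0502) and with only the compared groups in the fit (-1.81, 0.0861). ERCC scaling also ended that of Gm8994 (-1.62, 0.0849). The 6 had been picked in a comparison that used the same RC control libraries.

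Across the 15 libraries, the log2 levels most like that of the Zscan4 sum, among 13314 genes with a mean of at least 1 CPM, were those of Tcstv3 (Pearson r = 0.993), Gm12794 (0.991), Gm8994 (0.987), Tmem92 (0.977), Zscan4e (0.974), Tcstv1 (0.972), Dcc (0.972) and Gm4971 (0.971). The libraries share 5 treatment groups, and with group means taken away the same r lay between 0.46 for Tmem92 and 0.86 for Dcc, the netrin receptor. Tcstv3 averaged 4.82 CPM in LINE1 siDux, 17.1 in LINE1 control, 13 in RC siNcl, 0.431 in RC siDux and 2.58 in RC control, the same order of groups as Zscan4. Dcc averaged 0.933, 2.52, 2.26, 0.0934 and 0.483 CPM in the same groups. In all, 16 genes had an r of at least 0.95 and 32 of at least 0.9.

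Of 17 listed regulators and partners of Zscan4, 16 were in the table and tested. Of all genes, 9.35% rose and 9.69% fell in LINE1 control against RC control, and 16.7% and 15.6% in RC siNcl against RC control, and nothing particular to the list is read from its counts. In LINE1 control against RC control 2 rose, Dux by 2.36 ± 0.57 (adjusted p = 0.0128) and Rif1, which encodes a telomere and replication timing protein, by 0.32 ± 0.09 (0.027). There 4 fell: Kdm1a, a histone demethylase, by 0.36 on the log2 scale (adjusted p = 0.00952), Ehmt2, a histone H3K9 methyltransferase, by 0.53 (0.0127), Trim28, the corepressor of KRAB zinc finger proteins, by 0.44 (0.0164), and Ncl by 0.46 (0.0208). In RC siNcl against RC control 2 rose, Dux by 2.67 ± 0.58 (adjusted p = 0.00225) and Dppa2, an activator of Dux, by 0.32 ± 0.11 (0.0379). There 5 fell, among them Ncl, the target of the siRNA, Trim28 by 0.55 (adjusted p = 0.00144), Ehmt2 by 0.47 (0.0108) and Chaf1b, of the chromatin assembly factor CAF-1, by 0.41 (0.0113).

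Telomere genes were examined because of the known role of ZSCAN4. Of 18 listed and in the table, 17 were tested. Their counts in LINE1 control and in RC siNcl against RC control were near or below the shares of all genes called there (9.35% higher and 9.69% lower, and 16.7% and 15.6%). Nothing particular to the list is read from these counts. In LINE1 control against RC control 0 rose and 2 fell, Dkc1, of the telomerase complex, by 0.43 (adjusted p = 0.0138) and Terf1, of shelterin, by 0.37 (0.02). In RC siNcl against RC control 1 rose, Tert, the catalytic subunit of telomerase (0.72 ± 0.13, adjusted p = 0.000638), and 1 fell, the meiotic recombinase gene Dmc1 (-0.69 ± 0.20, 0.0144). The median change of the list was 0.02 and -0.02, against 0.02 and -0.01 over all genes. In RC siDux against RC control 0 rose and 3 fell, where 4.5% of all genes fell. In LINE1 siDux against RC control 0 rose and 4 fell, where 16.2% of all genes fell. In LINE1 siDux against LINE1 control 0 rose and 0 fell, where 0.544% of all genes rose and 0.306% fell. In LINE1 siDux against RC siDux 0 rose and 0 fell as well, where 2.31% of all genes rose and 0.749% fell. With so few genes called at all, nothing is read from these 0 counts. The list was not tested as a set.

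Many of these regulator and telomere calls changed with the libraries or the scaling used. Without LINE1 control replicate 1, none of the 8 calls of LINE1 control against RC control held (adjusted p from 0.056 to 0.127), although the changes were of much the same size, 2.29 for Dux, 0.28 for Rif1 and between -0.43 and -0.30 for the 6 that fell. With only the 2 compared groups in the fit, 7 of the 8 were lost at nearly the same changes (adjusted p from 0.073 to 0.157), and that of Dux held. With ERCC scaling the same 7 were lost (adjusted p of 0.987 or more), with the changes of the 6 lower genes between -0.38 and -0.13, and the call of Dux held. Thinning every library to the smallest gene total ended the call of Dux in LINE1 control against RC control (1.72 ± 0.64, adjusted p = 0.0705). Without LINE1 control replicate 2 those of Rif1, Trim28, Ncl, Dkc1 and Terf1 were lost, and without RC control replicate 2 those of Rif1, Ncl and Terf1. In RC siNcl against RC control, the call of Dppa2 was lost without RC control replicate 2 or any RC siNcl library, those of Ehmt2 and Chaf1b without RC siNcl replicate 3, and that of Dmc1 without RC siNcl replicate 2. ERCC scaling ended the calls of Dppa2, Trim28, Ehmt2, Chaf1b, Tert and Dmc1 (adjusted p of 0.612 or more), with changes between -0.65 and 0.73. The calls of Dux and Ncl in RC siNcl held without any single library and with ERCC scaling.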

How the data were processed

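Per the labels' protocols, libraries were made from 1 ug of DNase-treated total RNA with a directional mRNA-seq kit. The submitters' processing notes name Trim Galore 0.4.0, TopHat2 2.0.9, the genome build mm9, R 3.3.0 and DESeq2 1.12.3. The deposited values are raw counts per gene, with 92 ERCC rows, and raw counts per repeat subfamily. The sources used here do not say if strand was used in counting.

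Counts were tested with edgeR 4.0.16 (R 4.3.3): TMM scaling without ERCC rows, filterByExpr by group (14696 genes), and a quasi-likelihood model with 1 term per group over all 15 libraries (10 residual degrees of freedom). P-values were adjusted by Benjamini-Hochberg over all genes within each of 9 comparisons, at 0.05. For the sum, the 4 rows were replaced by their total. Repeats used the gene table's library sizes and factors. Errors are SE of the fit or SD over libraries, and 95% intervals use the residual degrees of freedom. Replicate counts differed by more than sampling noise. Deviations from the mean of the group, compared between libraries with equal replicate numbers, had correlations of 0.469, 0.28 and 0.556 in LINE1 siDux against LINE1 control and of 0.186, 0.199 and 0.28 in RC siDux against RC control, but not above 0.1 for every number elsewhere. The labels do not say what a number shares.

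The members, lists and tests were chosen with earlier results of these data known. Named are the Zscan4 genes, Dux, Ncl, MERVL-int and MT2_Mm, the 6 listed 2-cell-like genes with the smallest p and Zfp352, up to 4 regulators and 4 telomere genes per direction among those called, and the 8 genes most like the sum. Promoters and annotation came from RefSeq on GRCm38.p6, which holds a promoter for 3 of the 4 members. Alternatives were RLE and ERCC scaling, other filters, thinning, the replicate block, fitting the compared groups alone, DESeq2 1.42.0 and leaving out each library. Those for the repeats and the listed genes were added after the data had been seen.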

Additional observations from a re-analysis of the deposited data

How the results depend on the processing

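Of 141 recomputed values of the Zscan4 sum, 134 kept their direction and their side of the threshold. Scaling to ERCC counts, with adjusted p by edgeR, ended the calls of LINE1 siDux against RC control (1.33 ± 0.44, 0.0645), LINE1 control against RC siNcl (0.77 ± 0.42, 0.679) and RC siNcl against LINE1 siDux (1.20 ± 0.43, 0.308). With TMM these changes were 1.30 ± 0.20, 0.55 ± 0.18 and 1.28 ± 0.18, so the SE was larger with ERCC scaling. The ERCC share of counts differed within groups, from 0.303% to 0.643% in RC control and from 0.272% to 0.52% in RC siDux. Leaving out 1 library moved LINE1 control against RC siNcl between 0.42 and 0.86. Of 528 values of single members, 508 kept theirs. ERCC scaling also ended the calls of Zscan4c in LINE1 siDux against RC control (1.42, 0.0656), of Zscan4d in LINE1 control against RC siNcl (1.03, 0.401), and of Zscan4c, Zscan4d and Zscan4f in RC siNcl against LINE1 siDux (1.11, 0.89 and 1.21; adjusted p = 0.459, 0.82 and 0.345). Leaving out 1 library turned Zscan4a in LINE1 control against RC siNcl to -0.01 without RC siNcl replicate 2 (range -0.01 to 0.52) and Zscan4f in the interaction to -0.13 without RC siDux replicate 3 (range -0.13 to 0.88). Dux in RC siDux against RC control turned to 0.27 without RC control replicate 1 and to 0.20 without RC siDux replicate 2 (range -1.28 to 0.27). The cause was not tested.

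With the replicate block, the sum stayed on its side of the threshold in 9 of 9 comparisons, of which the interaction was not called either way, and MERVL-int (0.81, adjusted p = 0.033) and MT2_Mm (0.72, 0.0336) passed in LINE1 siDux against RC siDux. The block moved the genes called there to 766 higher and 463 lower, against 340 and 110.

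For the shares, leaving out 1 library gave from -15.1 to -11.3 points for Zscan4a, from 8.04 to 15.2 for Zscan4d and from -10.6 to 2.08 for Zscan4f, which turned without RC siDux replicate 1. Thinning gave -12.4 and 9.75 points, and logits of the shares gave differences of -1.08 and 0.957 (adjusted p = 0.06 for both, exact permutation).

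ERCC scaling shifted the median of all genes by 0.22 in LINE1 control against RC control, -0.22 in LINE1 siDux against RC siDux, 0.31 in RC siDux against RC control, 0.16 in LINE1 control against RC siNcl and -0.12 in LINE1 siDux against LINE1 control. Genes called over the whole table moved most. ERCC scaling left 278 higher and 2 lower in LINE1 control against RC control (1374 and 1424 with TMM), 38 and 3 in LINE1 siDux against RC siDux (340 and 110), 489 and 10 in LINE1 siDux against RC control (2449 and 2388), 563 and 68 in RC siNcl against RC control (2461 and 2298), 0 and 6 in LINE1 siDux against LINE1 control (80 and 45) and 187 and 10 in RC siDux against RC control (895 and 661). It left 106 and 19 in LINE1 control against RC siNcl (1389 and 1534) and 16 and 56 in RC siNcl against LINE1 siDux (1100 and 1074). Fitting the compared groups alone gave 364 and 32 in LINE1 control against RC control and 201 and 41 in RC siDux against RC control, and leaving out LINE1 control replicate 1 gave 473 and 113 in the first of these.

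Listed 2-cell-like genes with ERCC scaling numbered 5 higher in LINE1 siDux against RC control, 2 lower in LINE1 siDux against LINE1 control and 5 lower in RC siDux against RC control, and the last was also 5 with the compared groups alone. With a filter of 5 CPM in 3 libraries, 15 were higher in LINE1 control and in RC siNcl against RC control, and 8 in LINE1 siDux against RC control. That filter takes weaker listed genes out of the test, such as Gm13119, with at most 4.01 CPM in RC siNcl. These counts are therefore out of fewer genes than the 33 tested otherwise, and a lower count is not read as rises lost.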
